A study of Mus musculus with 2 samples.

Results

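The vascular endothelial growth factor (VEGF) family was followed here through 10 genes, 5 ligands (Vegfa, Vegfb, Vegfc, Vegfd and Pgf) and 5 receptors or co-receptors (Flt1, Kdr, Flt4, Nrp1 and Nrp2), of the 32285 genes counted. The 10 were chosen by name, and all of them were found in the gene table of both libraries. Levels were read in barcodes above 2000 and below 9000 detected genes whose mitochondrial share stayed under 10% of UMIs (unique molecular identifiers, 1 per captured transcript). The cells came from mouse embryos at E13.5 and were sorted for eYFP, which marks descendants of cells that expressed Isl1-Cre. Control embryos carried Isl1-Cre and R26R-eYFP, and mutant embryos carried in addition R26R-Pik3caH1047R, an activated form of the catalytic PI3K subunit p110α that the same Cre switches on. Tissue rostral to the liver, labelled as pharyngeal arch, was pooled from 3 embryos per genotype into 1 library on the 10x Genomics 5′ assay. The sort took cells marked by Cre from many lineages and not from endothelium alone. Whether the Pik3caH1047R allele had been switched on in each sorted cell was not measured here. With 1 library per genotype, differences between genotype, embryo and library cannot be told apart, and no test was made.

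VEGF ligands are secreted proteins. Vegfa acts mainly through the tyrosine kinase Kdr (VEGFR2) on blood endothelium, while Flt1 (VEGFR1) binds Vegfa, Vegfb and Pgf with high affinity and, largely as a decoy, holds ligand back from Kdr. Vegfc and Vegfd act through Flt4 (VEGFR3), the receptor of lymphatic endothelium, and Nrp1 and Nrp2 are co-receptors that also bind class 3 semaphorins, guidance cues for axons and vessels. Transcription of Vegfa and Flt1 is known to respond to low oxygen through hypoxia-inducible factors, which bind the core sequences ACGTG and GCGTG. In the GENCODE M21 annotation of GRCm38, the ligand genes lie as follows: Vegfa at chr17:46016993-46032369 (minus strand), Vegfb at chr19:6982473-6987651 (minus strand), Vegfc at chr8:54077606-54187096 (plus strand), Vegfd at chrX:164373378-164402650 (plus strand) and Pgf at chr12:85166635-85177790 (minus strand). The receptor genes are Flt1 at chr5:147561604-147726011 (minus strand), Kdr at chr5:75932827-75978458 (minus strand), Flt4 at chr11:49609263-49652739 (plus strand), Nrp1 at chr8:128358604-128503363 (plus strand) and Nrp2 at chr1:62703285-62818695 (plus strand).

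Start regions of Vegfa and its receptors Flt1 and Kdr are shown because the results turn on them and because a hypoxia reference list is read beside Vegfa further on. In RefSeq start regions of GRCm38.p6 (250 bases before to 50 after a start), 12 windows matched the 10 members. ACGTG and GCGTG were searched on both strands, and matches may share bases. Of all 32851 windows, 19.6% held ACGTG, 32.4% GCGTG and 43.8% either of them. Among the members, 7 of the 12 windows, from 7 genes, held either motif, and 1 window held ACGTG. Printed here are the 250 bases upstream of a start, 5′ to 3′ on the strand of the gene, with each motif in capitals. The first lies at chr17:46032378-46032627 on the minus strand, 8 bases from the annotated start of Vegfa, and holds neither motif.
Vegfa, gene start: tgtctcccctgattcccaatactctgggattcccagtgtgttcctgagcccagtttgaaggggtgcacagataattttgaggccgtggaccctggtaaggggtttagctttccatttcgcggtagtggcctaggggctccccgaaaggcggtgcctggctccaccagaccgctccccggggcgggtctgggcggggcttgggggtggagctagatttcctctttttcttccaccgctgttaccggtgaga
The second lies at chr17:46025164-46025413 on the minus strand, before a RefSeq start 7206 bases inside Vegfa. Its 2 matches, at 218 and 211 bases before that start, both fall in a coding exon of the gene.
Vegfa, internal start: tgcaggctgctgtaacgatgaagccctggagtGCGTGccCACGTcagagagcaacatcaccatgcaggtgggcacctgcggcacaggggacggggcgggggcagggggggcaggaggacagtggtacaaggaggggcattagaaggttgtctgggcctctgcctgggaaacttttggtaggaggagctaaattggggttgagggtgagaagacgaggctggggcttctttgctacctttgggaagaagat
For Flt1 (chr5:147726012-147726261, minus strand) 1 match lay 184 bases before the start, and for Kdr (chr5:75978456-75978705, minus strand) matches lay 131 and 89 bases before it. None of these 3 lies in an annotated exon.
Flt1: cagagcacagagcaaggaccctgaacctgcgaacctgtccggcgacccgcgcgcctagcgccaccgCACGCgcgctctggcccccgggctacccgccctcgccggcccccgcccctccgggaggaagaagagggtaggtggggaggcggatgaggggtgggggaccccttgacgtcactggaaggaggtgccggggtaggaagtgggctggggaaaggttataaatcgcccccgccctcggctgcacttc
Kdr: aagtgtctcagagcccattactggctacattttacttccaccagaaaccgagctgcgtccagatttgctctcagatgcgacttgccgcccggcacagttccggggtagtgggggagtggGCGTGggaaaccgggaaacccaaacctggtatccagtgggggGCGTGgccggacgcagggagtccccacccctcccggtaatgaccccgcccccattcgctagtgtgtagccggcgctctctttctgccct
A match describes the letters only, and the absence of one in a window says nothing about where the factor binds.

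The limits kept 2783 of 4505 control barcodes (63153191 UMIs, median 20412 per cell) and 3489 of 5357 mutant barcodes (69717583 UMIs, median 16839), and the libraries shared 28 barcode sequences. Clustering without the members gave 16 clusters, which were named from marker lists and are called X-like. The classes were endothelial-like (162 control and 744 mutant cells, 2 clusters, led by Emcn, Aplnr and Kdr and by Gja4, Eln and Fbln5), branchial muscle-like (888 and 844, 3 clusters, led by Msc, Kcne1l and Myf5, by Myh3, Mylpf and Tnnc2 and by Pax7, Bmpr1b and Lama2), mesenchymal-like (528 and 511, Twist1, Prrx1 and Angptl1, with cartilage cells), lung and foregut mesenchymal-like (352 and 78, Adh1, Wnt2 and Hoxb5), epithelial-like (177 and 271, Krt5, Sfn and Krt15), cardiomyocyte-like (54 and 184, Myl7, Myl2 and Myl3), neuronal-like (65 and 137, D130009I18Rik, Neurod1 and Thsd7b) and mesothelial-like (70 and 67, Upk3b, Aldh1a2 and Lrrn4). Cluster 3 (180 and 360 cells) mixed neuronal and Schwann cell markers and cluster 6 (174 and 176) globin and myeloid markers, so both go by number. All 15 endothelial markers were raised in the larger endothelial-like cluster and 13 of 15 in the other. Clusters 12 (Myh11, Actg2 and Myocd, 98 and 40 cells) and 14 (Cga, Six6 and Chga, 35 and 30) and hepatoblast-like cells (Afp, Alb and Apoa2, 0 and 47) held too few cells in a library and were not compared. Cells with an Xist UMI and no Y-linked UMI (female-like) were 95.5% of control and 33.6% of mutant cells, while male-like cells were 0.0359% and 53.3%, so the pools also differed in embryo sex.

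For each class, the UMIs of a gene were summed per library and divided by the UMIs of the class, as CPM (UMIs of the gene per 1000000 UMIs of the class, which here does not stand for cardiopharyngeal mesoderm). The mutant level over the control level is given as a log2 ratio. Values in parentheses after a level or a ratio are 95% intervals for counting error only. A gene with at least 20 UMIs in a class over both libraries was compared, and it was called higher or lower when its whole interval lay beyond 1.5-fold. Reads of the 5′ assay are not scaled to gene length, so each gene is compared with itself across classes and never with another gene.

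Among the sorted control cells, most Vegfa UMIs lay outside the endothelium. Cells other than endothelial-like ones held 98.0% of its control UMIs, with 25.4% in branchial muscle-like, 25.1% in lung and foregut mesenchymal-like and 24.1% in mesenchymal-like cells. Shares of UMIs, here and below, depend on how many cells of each class were sorted, so levels in CPM are given as well. Per UMI of the class, Vegfa stood highest in cluster 12 at 119 CPM (101 to 139), followed by lung and foregut mesenchymal-like cells at 91.9 CPM (85.5 to 98.5), mesenchymal-like cells at 77.3 CPM and epithelial-like cells at 56.8 CPM. It was lowest in endothelial-like cells at 17.7 CPM. Their interval overlapped those of cluster 6 at 21.5 CPM, neuronal-like cells at 22.3 CPM and cluster 3 at 25.0 CPM.

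In the mutant library, where cluster 12 held 40 cells and was not ranked, the order of the other classes was different. Mesothelial-like cells, the lining of the body cavities, stood first at 314 CPM against 34.5 in control, a log2 ratio of 3.19 (2.82 to 3.57). Endothelial-like cells had 2084 UMIs, or 139.8 CPM (134 to 146), against 63 UMIs, or 17.7 CPM (13.6 to 22.7), in control, a log2 ratio of 2.98 (2.62 to 3.36). The library intervals lay far apart in both classes. Endothelial-like cells made up 5.62% of all control and 21.4% of all mutant UMIs, and they held 2.02% of the control and 24.5% of the mutant Vegfa UMIs.

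Vegfa was called higher in 7 of the 10 classes compared. Apart from the 2 above these were epithelial-like cells (56.8 to 199 CPM, log2 1.81), neuronal-like cells (22.3 to 73.8, 1.73), cluster 3 (25.0 to 75.7, 1.6), mesenchymal-like cells (77.3 to 229.9, 1.57) and branchial muscle-like cells (792 and 1956 UMIs, 1.56). Within branchial muscle-like cells the fine cluster led by Pax7 and Bmpr1b went from 63.2 to 317 CPM, and within mesenchymal-like cells the cartilage-like fine cluster went from 55.2 to 255 CPM. Neither lung and foregut mesenchymal-like cells (91.9 and 103 CPM, log2 0.16, -0.08 to 0.39) nor cardiomyocyte-like cells (38.1 and 54.7, 0.52, -0.02 to 1.11) passed the 1.5-fold limit. In cluster 6 Vegfa was called lower, 100 UMIs in control and 46 in mutant, log2 -1.22 (-1.76 to -0.70). At finer resolution the myeloid-like cells of cluster 6 had 47 control UMIs and 2 mutant UMIs, and the erythroid-like cells 53 and 44.

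**Figure D1:**
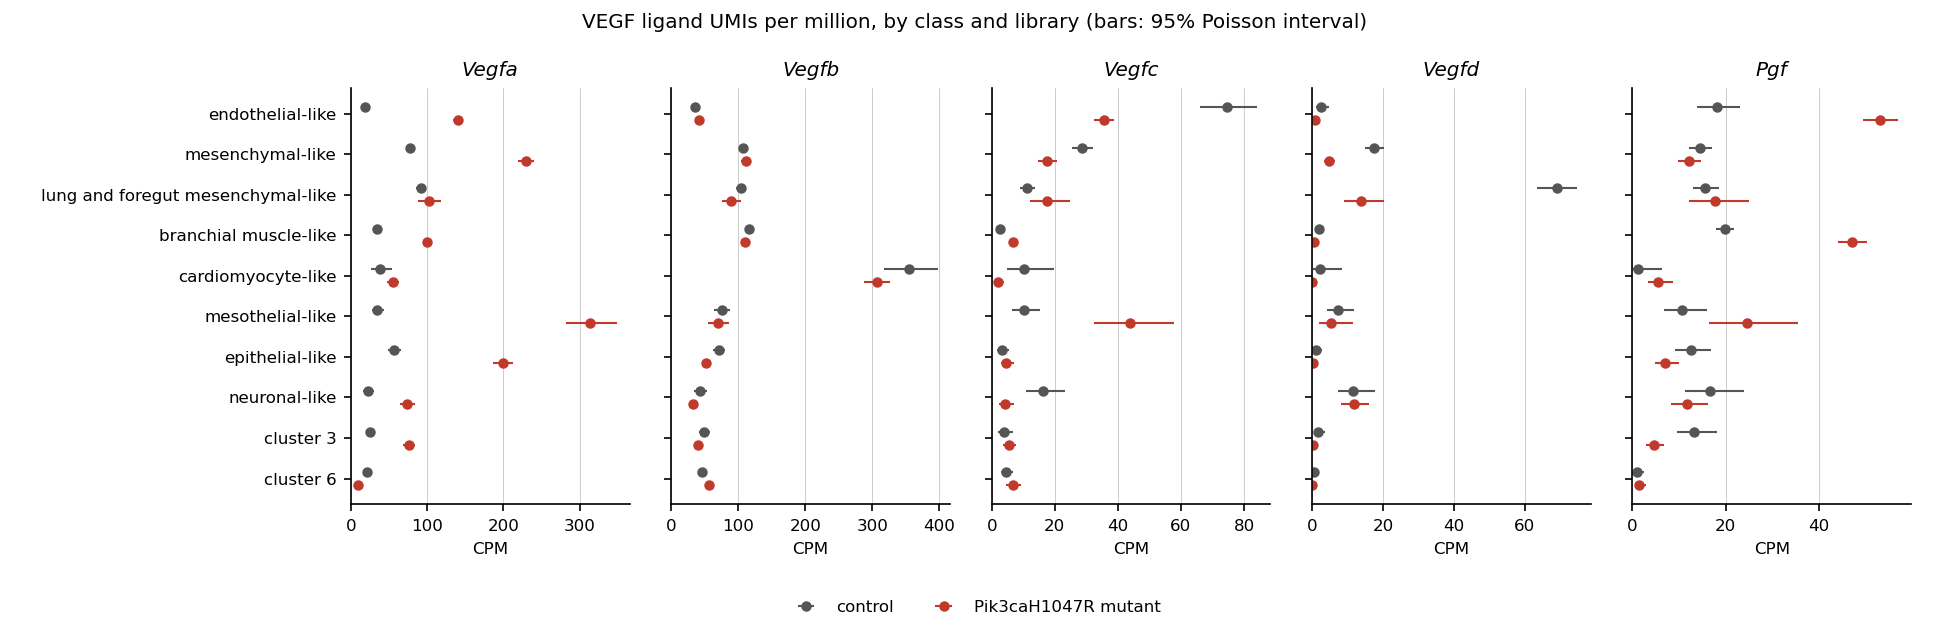
Level of each VEGF ligand (1 panel per gene) in the 10 cell classes compared, in CPM of the class on a linear axis, with control (grey) and mutant (red) points and 95% Poisson intervals as bars. Vegfa is at 17.7 CPM in control and 139.8 CPM in mutant endothelial-like cells, and Vegfb stands highest in cardiomyocyte-like cells of both libraries.

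Vegfb, which binds Flt1, stood highest in cardiomyocyte-like cells at 356 CPM in control and 307 CPM in mutant, and their intervals lay above those of every other class. It was compared in 10 classes and called in 0 of them, with log2 ratios from -0.47 in epithelial-like cells to 0.30 in cluster 6. Cardiomyocyte-like cells held 5.06% of control and 16.8% of mutant Vegfb UMIs, while branchial muscle-like cells held 44.7% and 36.1%.

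Vegfc, a lymphangiogenic ligand, was the only one of the 5 ligands that control endothelial-like cells carried above every other class, at 74.6 CPM (265 UMIs) with an interval that overlapped no other. In mutant endothelial-like cells it was at 35.5 CPM (530 UMIs), log2 -1.07 (-1.28 to -0.85), and was called lower. Mesothelial-like cells went the other way, from 10.1 CPM (22 UMIs) to 43.9 CPM (50 UMIs), log2 2.12 (1.37 to 2.91). With cells thinned to 5000 UMIs each, the mesothelial-like difference was gone at log2 -0.031 (-1.42 to 1.34). In branchial muscle-like cells Vegfc was called higher (64 and 132 UMIs, log2 1.30). In neuronal-like cells it was called lower (29 and 13 UMIs, log2 -1.93), and 8 of 17 alternatives kept that call. Of those UMIs, 21 and 2 came from the fine cluster led by Cntnap2 and Nwd2, with 16 and 9 cells. The larger fine cluster, led by Neurod1 and Ppp1r17, had 8 and 11 UMIs, log2 -0.53 (-1.98 to 0.99). Mesenchymal-like cells held 31.3% of the control and 13.3% of the mutant Vegfc UMIs, and their ratio of -0.70 (-1.01 to -0.40) was not called.

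Vegfd, the other ligand of Flt4, was a gene of lung and foregut mesenchymal-like cells in the control library. They held 64.1% of its control UMIs at 69.1 CPM (589 UMIs), the interval lying above that of every other class. In the mutant library the class had 13.8 CPM (25 UMIs, 78 cells), log2 -2.32 (-2.96 to -1.75), and held 17.4% of Vegfd UMIs. Mesenchymal-like cells (169 and 37 UMIs, log2 -1.89) and branchial muscle-like cells (44 and 8 UMIs, -2.20) were called lower as well. Neuronal-like cells stayed at 11.7 CPM in both libraries, log2 0.00 (-0.81 to 0.85). Vegfd therefore had 3 classes called lower and 0 called higher of the 6 compared, the 0 covering those 6 classes and this rule only.

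The lung and foregut mesenchymal-like result for Vegfd moved with the sex of the cells. The 8 female-like mutant cells of the class had 13 Vegfd UMIs, or 98.5 CPM (52.4 to 168), against 69.1 CPM in female-like control cells, a log2 ratio of 0.51 (-0.41 to 1.30). The 64 male-like mutant cells had 11 UMIs, or 6.93 CPM (3.46 to 12.4). Of the class, 340 of 352 control cells were female-like and 64 of 78 mutant cells male-like, so embryo and genotype cannot be told apart for this gene. In the other classes called lower, the female-like ratio of mutant over control stayed lower. It was -1.92 (-2.95 to -1.04) in mesenchymal-like and -2.78 (-5.87 to -0.85, 44 and 2 UMIs) in branchial muscle-like cells.

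Pgf (placental growth factor), which binds Flt1 and Nrp1, had 45.9% of its control and 45.5% of its mutant UMIs in branchial muscle-like cells, the class with the most cells. Per UMI of the class it stood highest in cluster 12 in control, at 35.4 CPM with an interval above all others. Cluster 12 held 40 mutant cells, too few to be ranked there. Among the ranked mutant classes Pgf stood highest in endothelial-like cells, whose interval overlapped that of branchial muscle-like cells. In branchial muscle-like cells it went from 19.8 to 47.0 CPM, log2 1.25 (1.09 to 1.42). In endothelial-like cells it went from 18.0 CPM (64 UMIs) to 53.0 CPM (790 UMIs), log2 1.56 (1.19 to 1.95), and the endothelial share of all Pgf UMIs from 6.37% to 39.1%. That share also depends on the size of the class, which had 162 control and 744 mutant cells. The branchial muscle-like and endothelial-like classes were both called higher and cluster 3 lower (41 and 24 UMIs, log2 -1.53). Mesothelial-like cells had 23 and 28 UMIs, and their ratio of 1.21 (0.37 to 2.08) was not called.

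UMIs of the 3 tyrosine kinase receptors lay mostly in endothelial-like cells in both libraries. Endothelial-like cells held 90.2% of control and 96.4% of mutant Kdr UMIs, 85.6% and 95.2% of Flt1 UMIs, and 85.1% and 93.0% of Flt4 UMIs. These shares also depend on the size of the class, which had 162 control and 744 mutant cells. Levels in this class follow. Kdr was at 589 CPM in control and 534 CPM in mutant, log2 -0.14 (-0.21 to -0.07), within the 1.5-fold limit. Flt1 was at 408 CPM (388 to 430) and 829 CPM (814 to 843), log2 1.02 (0.94 to 1.10), called higher with library intervals far apart. Flt4 was at 114 and 78.0 CPM, log2 -0.55 (-0.72 to -0.38), and was not called. A lymphatic-like subcluster of 18 control and 29 mutant cells, described below, held 177 of the 406 control and 155 of the 1163 mutant Flt4 UMIs of the class. The part of the subcluster mix in this ratio was not tested.

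**Figure D2:**
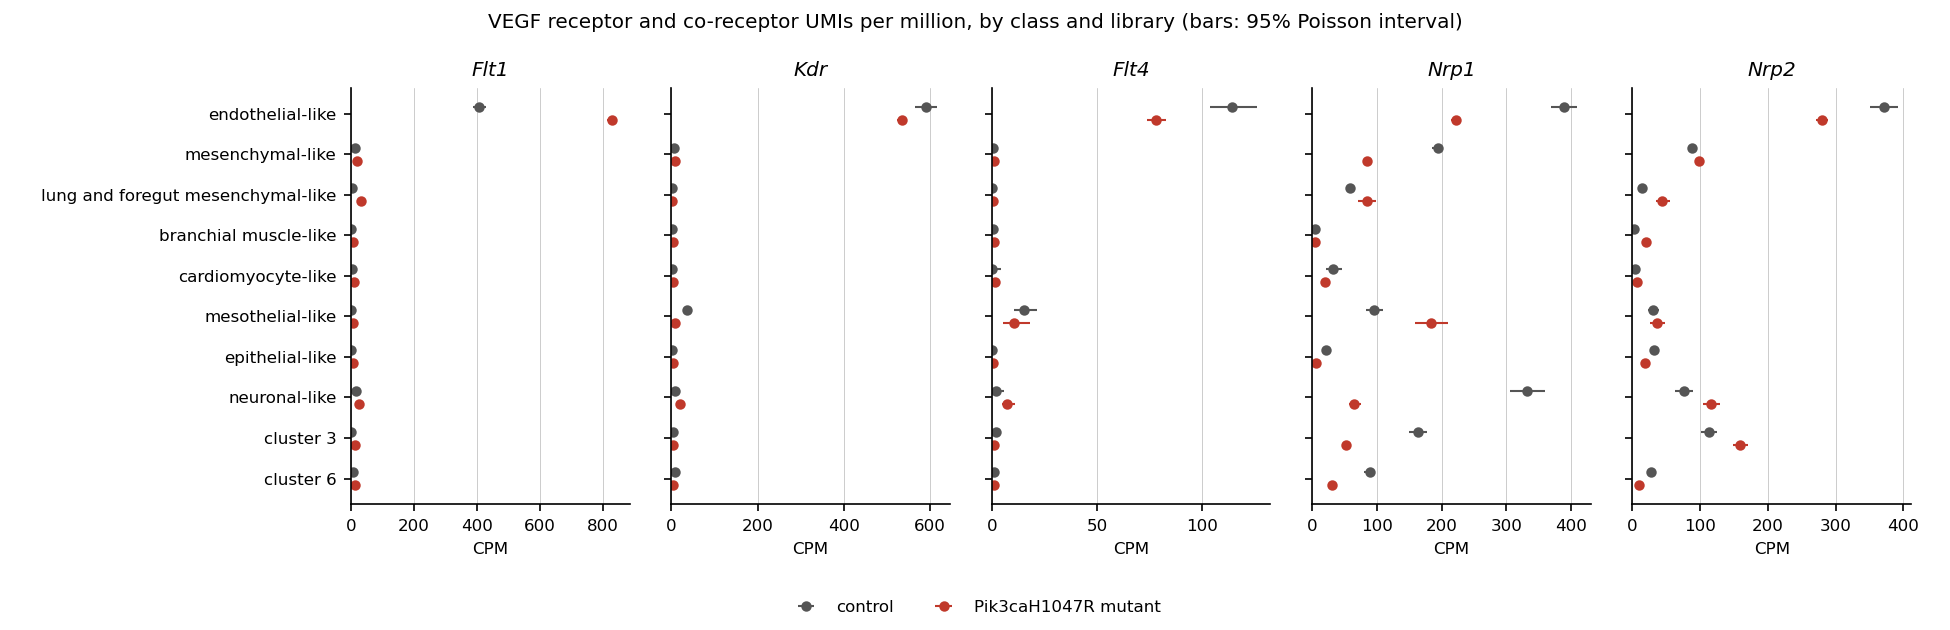
Level of each receptor and co-receptor (1 panel per gene) in the 10 cell classes compared, in CPM of the class on a linear axis, with control (grey) and mutant (red) points and 95% Poisson intervals as bars. Flt1, Kdr and Flt4 stand highest in endothelial-like cells of both libraries, while Nrp1 and Nrp2 also reach high levels in other classes, such as Nrp1 at 332 CPM in control neuronal-like cells.

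Outside the endothelium, the receptor levels were set against endothelial RNA that any class may hold. Over 8 endothelial markers that other classes should lack (Cdh5, Pecam1, Tie1, Egfl7, Esam, Cldn5, Ecscr and Robo4), the median level in a class was 0.115% to 1.72% of the endothelial level in control and 0.631% to 3.61% in mutant. Branchial muscle-like cells had Flt1 at 0.168% and Kdr at 0.0872% of the endothelial level in control and at 0.617% and 0.613% in mutant, near the marker median of 0.115% and 0.631%. So the ratios called higher there (Flt1 2.90, from 16 to 100 UMIs, and Kdr 2.67, from 12 to 64 UMIs) moved with the endothelial markers. In cluster 3 Flt1 had 2 and 69 UMIs, a log2 ratio of 4.35 (2.45 to 7.43). It stood at 0.159% of the endothelial level in control, below the lowest marker at 0.232%, and at 1.6% in mutant, inside the marker range of 0.564% to 3.82%. The marker median there was 0.688% and 1.43%, so Flt1 differed by more than the median marker did. That difference rests on the 2 control UMIs, and with thinned cells the log2 ratio was 1.96.

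In mesothelial-like cells Flt4 stood above that background in both libraries and Kdr in control alone. In control, Kdr there was at 36.3 CPM (79 UMIs), 6.17% of the endothelial level, against a marker range of 0% to 4.88%. Flt4 was at 15.2 CPM (33 UMIs), 13.3% of the endothelial level, and stayed at 10.5 CPM (12 UMIs) in mutant, or 13% of the endothelial level, where the highest marker stood at 4.86%. In mutant, Kdr was at 7.90 CPM (9 UMIs), 1.48% of the endothelial level and near the marker median of 1.10%. Its log2 ratio was -2.20 (-3.38 to -1.21), called lower, while Flt4 was not called (log2 -0.53, -1.62 to 0.46). After thinning, 20% of control and 4.62% of mutant mesothelial-like cells had a Kdr UMI (37.1% and 7.46% unthinned, median 28114 and 14430 UMIs per cell). In lung and foregut mesenchymal-like cells, at median depths of 23229 and 21891, the thinned share was 0.575% and 0%. Flt4 also passed the highest marker in mutant neuronal-like cells, at 9.58% against 8.45% (23 UMIs, and 4 in control). The fine cluster led by Neurod1 and Ppp1r17 had 2 and 23 Flt4 UMIs. Of its cells, 11.3% were among the highest doublet scores. In control, Flt4 passed it in cluster 3 (6 UMIs, 1.70% against 1.58%) and cluster 12 (4 UMIs, 2.64% against 1.53%).

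Flt1 also stood above the highest endothelial marker in some classes. In lung and foregut mesenchymal-like cells it went from 3.64 CPM (31 UMIs) to 33.1 CPM (60 UMIs), log2 3.19 (2.54 to 3.86), or from 0.890% to 4.0% of the endothelial level. The marker median moved from 0.249% to 0.80%, and the highest marker stood at 2.39% and 2.21%. The class thus passed the highest marker in mutant and not in control. Neuronal-like cells had Flt1 at 4.22% of the endothelial level in control, above a highest marker of 2.00%, and at 3.18% in mutant, where the markers ranged from 3.03% to 8.45%. Different cells made up these values, since the fine cluster led by Cntnap2 and Nwd2 had 30 Flt1 UMIs in control and 1 in mutant, and the one led by Neurod1 and Ppp1r17 had 1 and 80. In mesenchymal-like cells Flt1 was at 2.92% and 2.46%, above the highest markers of 1.95% and 2.31%. Its levels there were 11.9 and 20.4 CPM, log2 0.78 (0.42 to 1.13), which was not called, with 30.6 CPM in male-like against 5.68 CPM in female-like mutant cells.

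UMIs of Nrp1 and Nrp2 were spread more widely over the classes. Endothelial-like cells held 23.4% of control Nrp1 UMIs, mesenchymal-like cells 32.0% and neuronal-like cells 10.1%. Nrp1 was called lower in 6 of the 10 classes: neuronal-like cells (332 to 65.3 CPM, log2 -2.34), epithelial-like cells (21.7 to 5.61, -1.95), cluster 3 (163 to 51.9, -1.65), cluster 6 (88.9 to 30.6, -1.54), mesenchymal-like cells (194 to 84.7, -1.19) and endothelial-like cells (389 to 223, -0.81). Mesothelial-like cells went the other way, from 96.2 to 183 CPM, log2 0.93 (0.65 to 1.21). Nrp1 was called higher there, and 12 of 17 alternatives kept that call. Branchial muscle-like cells stayed at 4.2 CPM in both libraries. In the mutant library the endothelial share of Nrp1 UMIs was 62.5%, although the level in endothelial-like cells was lower. That class held 162 control and 744 mutant cells, and such shares depend on its size.

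In cluster 6 the Nrp1 difference moved with the kind of cell. Its myeloid-like cells, at finer resolution 93 in control and 41 in mutant, had 134 and 103 CPM, and its erythroid-like cells, 81 and 135, had 37.7 and 8.14 CPM. Of the neuronal-like cells, the fine cluster led by Neurod1 and Ppp1r17 (49 and 128 cells) had 201 and 57.9 CPM. The one led by Cntnap2 and Nwd2 (16 and 9 cells) had 929 and 205 CPM. The mutant level was lower in each of these 4 fine clusters, although the library intervals overlapped in the myeloid-like cells, and the mix of cells within the classes differed between libraries too.

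Nrp2, a co-receptor of Flt4, was at 371 CPM in control and 279.9 CPM in mutant endothelial-like cells, log2 -0.41 (-0.50 to -0.32), and was not called. The lymphatic-like subcluster held 689 of the 1319 control and 532 of the 4174 mutant Nrp2 UMIs of that class. The part of the subcluster mix was not tested here either. The largest difference was in branchial muscle-like cells, from 2.36 CPM (55 UMIs) to 20.8 CPM (406 UMIs), log2 3.14 (2.73 to 3.57). Its level there was 0.635% of the endothelial level in control and 7.42% in mutant, where the highest endothelial marker stood at 1.22%. It was higher in each of the 4 fine clusters of this class, from 0.850 to 21.9 CPM in the one led by Msc and Kcne1l and from 9.72 to 69.3 CPM in the one led by Pax7 and Bmpr1b. Lung and foregut mesenchymal-like cells went from 14.7 to 44.2 CPM (log2 1.59, called higher) and cluster 6 from 27.5 to 10.4 CPM (-1.40, called lower). Cluster 3 carried Nrp2 at 113 and 159 CPM, the second highest level among the classes compared in both libraries, and was not called.

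**Figure D3:**
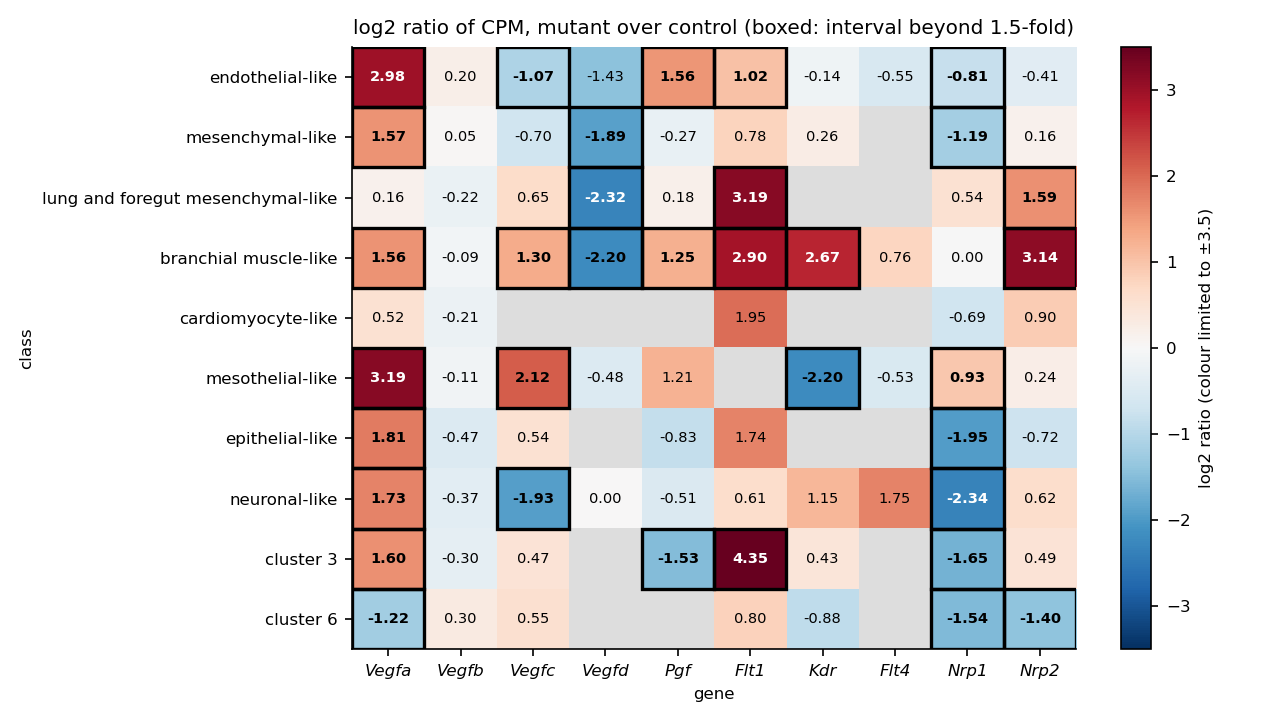
Log2 ratio of mutant over control level for each member (columns) in each class (rows), with the value printed, a colour scale limited to a fixed range, boxes where the whole 95% counting interval lies beyond 1.5-fold, and grey where fewer than 20 UMIs were counted. Vegfa is boxed as higher in 7 classes and Nrp1 as lower in 6, and Vegfb in 0 of 10.

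The calls of the members were read against all genes compared in the same class. In endothelial-like cells 3 of the 10 members were called higher (Vegfa, Pgf and Flt1), where 4.45% of 14464 genes were, and 2 lower (Vegfc and Nrp1), where 4.67% were. In branchial muscle-like cells 6 of 10 were called higher (Vegfa, Vegfc, Pgf, Flt1, Kdr and Nrp2) against 7.77% of 15703 genes, and 1 lower (Vegfd) against 3.99%. The Flt1 and Kdr calls among these 6 are the ones that moved with the endothelial markers. In mesothelial-like cells 3 of 9 were higher (Vegfa, Vegfc and Nrp1) against 7.36% of 10953 genes, and 1 lower (Kdr) against 2.49%. These 3 classes held the most members called higher.

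Elsewhere fewer members were called. Mesenchymal-like cells had 1 of 9 higher (Vegfa, 4.32% of 14988 genes) and 2 lower (Vegfd and Nrp1, 5.86%), and neuronal-like cells had 1 of 10 higher (Vegfa, 3.12% of 12011 genes) and 2 lower (Vegfc and Nrp1, 7.29%). Epithelial-like cells had 1 of 7 higher (Vegfa, 3.92% of 13291 genes) and 1 lower (Nrp1, 3.36%), and lung and foregut mesenchymal-like cells 2 of 8 higher (Flt1 and Nrp2, 3.42% of 12559 genes) and 1 lower (Vegfd, 1.86%). Cluster 3 had 2 of 8 higher (Vegfa and Flt1, 2.43% of 13574 genes) and 2 lower (Pgf and Nrp1, 8.17%), and cluster 6 had 0 of 7 higher (3.51% of 12582 genes) and 3 lower (Vegfa, Nrp1 and Nrp2, 8.69%). In cardiomyocyte-like cells 0 of 5 members were called higher, where 1.71% of 9776 genes were, and 0 lower, where 4.12% were. The median log2 ratio of the members compared was 1.28 in branchial muscle-like cells, Flt1 and Kdr included, -0.28 in endothelial-like cells and -0.88 in cluster 6, where all genes had medians of 0.02, -0.07 and -0.03.

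Ligand and receptor were then read in the same cells. Each cell was thinned to 5000 UMIs, and 61 shallower cells of the control and 173 of the mutant library dropped out. After that, 8.18% (4.43 to 13.6) of control and 37.4% (33.8 to 41.1) of mutant endothelial-like cells had a Vegfa UMI. Unthinned, the shares were 25.9% and 60.9%, at median depths of 20288 and 17346 UMIs. In cluster 6, with median depths of 25412 and 27322, the thinned shares were 5.88% (2.86 to 10.6) and 4.71%. The Vegfa UMIs of cluster 6 lay in its myeloid-like cells (47 in control and 2 in mutant) and its erythroid-like cells (53 and 44). Whether they were its own or free RNA was not tested. Its share is therefore given beside the endothelial one and not as a measure of free RNA.

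Kdr UMIs were found in 81.8% of control and 78.6% of mutant endothelial-like cells after thinning. Both Vegfa and Kdr were found in 6.29% (3.06 to 11.3) of control and 31.7% (28.3 to 35.3) of mutant cells, where the products of the single shares were 6.68% and 29.4%, both inside those intervals. In mutant, 84.9% of the cells with a Vegfa UMI had a Kdr UMI, and 74.8% of the rest. Flt4 and Vegfc were found together in 8.18% (4.43 to 13.6) of control and 2.96% (1.84 to 4.49) of mutant endothelial-like cells, with products of 7.48% and 3.67%. In epithelial-like cells 26.5% and 52.8% had a Vegfa UMI and 0% and 1.98% a Kdr UMI, and the interval of the 0 of 166 control cells reached 2.20%.

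Endothelial-like cells were divided further to see which of them carried the members. Of 9 subclusters, 1 was lymphatic-like (Ccl21a, Pdpn and Reln, 18 control and 29 mutant cells) and 2 were arterial-like, led by Trpm3, Dkk2 and Tmem100 (21 and 91 cells, also with 6 of 7 endocardial markers) and by Esm1, Cxcr4 and Spock2 (17 and 40). The others stay unnamed and are called by their leading genes. The subcluster led by Fgf23, Slc2a3 and Trib3 had 10 control and 156 mutant cells, and the one led by Tafa1 and Pcdh15 1 and 19. Members were left out of the genes that placed the cells. Other genes, such as Slc2a3 and Trib3, were not, and Pgf was itself among the leading genes of the Slc2a3-led subcluster. The grouping therefore need not be independent of the members.

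The Vegfa level differed unevenly between the libraries across the endothelial-like subclusters. The Slc2a3-led cells went from 16.7 CPM (5 UMIs) to 232 CPM (868 UMIs) and held 41.7% of the mutant endothelial Vegfa UMIs. The cells led by Kirrel3, whose median depth was 8836 UMIs, went from 3 UMIs to 237 UMIs, the lymphatic-like cells from 13.8 to 192 CPM, and the Foxf1 and Pltp-led cells from 5.93 to 49 CPM. The Trpm3-led arterial-like cells had the smallest step, 70.1 CPM (23 UMIs) to 94.4 CPM (155 UMIs), log2 0.43 with an interval that includes no difference (-0.21 to 1.13), and carried 36.5% of the control endothelial UMIs. Without the Slc2a3-led cells the endothelial log2 ratio of Vegfa was 2.61 (2.23 to 3.02), still called, and that of Pgf was 0.36 (-0.04 to 0.78), not called.

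Most endothelial Pgf UMIs came from 2 states. In control it was a lymphatic-like gene, with 45 of the 64 endothelial UMIs (104 CPM), and it stood at 121 CPM there in mutant. In mutant, 517 of the 790 UMIs came from the Slc2a3-led cells, at 138 CPM against 6.67 CPM (2 UMIs) in control. The 2 states together carried most endothelial Pgf in each library. Pgf was higher in mutant in other states too, at fewer UMIs. These were the Foxf1 and Pltp-led (1 and 59 UMIs, log2 4.26, 1.72 to 9.58), Esm1-led (4 and 29, 2.62, 1.11 to 4.59) and Kirrel3-led cells (0 and 29). In the lymphatic-like (0.22, -0.30 to 0.77) and Col1a1-led cells (0.26, -0.93 to 1.67) the intervals included no difference.

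In control, Flt4 and Nrp2 stood highest in the lymphatic-like cells. There Nrp2 was at 1585 CPM in control and 677 CPM in mutant, and Flt4 at 407 and 197 CPM, while Kdr was at 706 and 527 CPM. In mutant, the Kirrel3-led cells stood above them in Nrp2, at 982 CPM. Their Flt4 level of 241 CPM (197 UMIs) was higher too, but its interval overlapped that of the lymphatic-like cells (155 UMIs). The median depth was 8184 UMIs in the mutant Kirrel3-led and 25635 UMIs in the mutant lymphatic-like cells. The lymphatic-like cells had 1 and 3 UMIs of Nrp1. They had 1 Flt1 UMI in control and 87 in mutant. Flt1 was otherwise higher in mutant in the Esm1-led arterial-like cells (590 and 1552 CPM), the Slc2a3-led cells (497 and 1278) and the Adamts18-led cells (402 and 931). The Kirrel3-led cells were higher too (203 and 1800 UMIs, log2 1.07, 0.86 to 1.29). So were the Foxf1 and Pltp-led cells, by less (336 and 1517 UMIs, 0.55, 0.38 to 0.72). Flt1 was lower in the Trpm3-led arterial-like cells (762 and 510.0 CPM).

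Vegfc levels were high in arterial-like and in Kirrel3-led cells. In the Trpm3-led arterial-like cells it was at 232 CPM in control and 68.8 CPM in mutant, and in the Kirrel3-led cells at 217 and 71.0 CPM. In the Esm1-led arterial-like cells it stood at 158 and 155 CPM, and in the lymphatic-like cells 1 UMI was counted in each library. Nrp1 had a like pattern, with 960.1 and 535 CPM in the Trpm3-led, 1094 and 378 CPM in the Kirrel3-led and 545 and 534 CPM in the Esm1-led cells. The levels of both genes were close between the libraries in the Esm1-led cells alone among these 3.

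**Figure D4:**
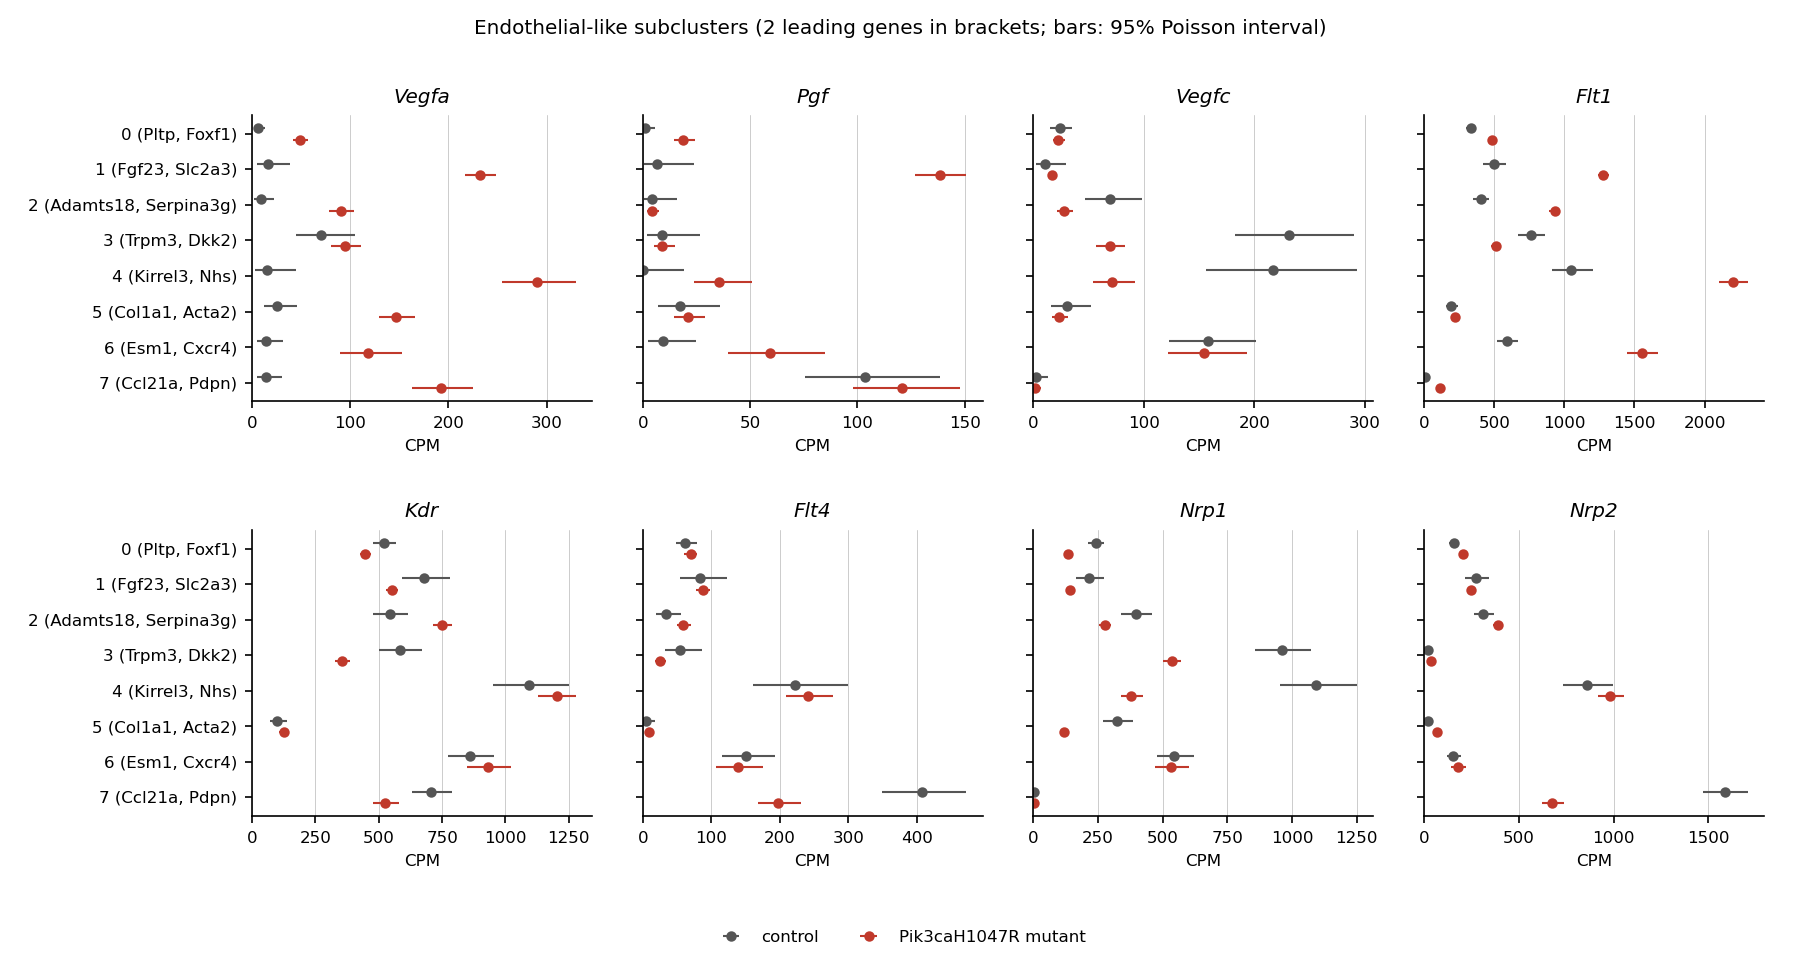
Level of 8 members (1 panel per gene) in the endothelial-like subclusters 0 to 7, named by 2 leading genes, in CPM on a linear axis, with control (grey) and mutant (red) points and 95% Poisson intervals as bars. Vegfa is at 16.7 CPM in control and 232 CPM in mutant in the subcluster led by Fgf23 and Slc2a3, and control Nrp2 and Flt4 stand highest in the one led by Ccl21a and Pdpn.

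A subcluster led by Col1a1 and Acta2 (18 and 69 cells) carried fewer endothelial than mural marker UMIs, with sums of 1488 and 3935 CPM over the lists, and 27.6% of its cells were among the highest doublet scores. It had Vegfa at 25.0 and 147 CPM and 40 and 214 Kdr UMIs. Without it, the 5 endothelial calls of the members were the same in number. In endothelial-like cells as a whole, summed mesenchymal markers stood at 683 CPM in control and 496 CPM in mutant (10 of 11 detected in mutant), and mural markers at 645 and 525 CPM. Their part in the results was not tested.

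The mutant pool could be divided by the sex of the cells, which separates embryos in part. In endothelial-like cells Vegfa was at 18.9 CPM in female-like control cells, 91.5 CPM in female-like mutant cells and 174 CPM in male-like mutant cells. Female-like mutant over female-like control cells gave a log2 ratio of 2.28 (1.89 to 2.68), beyond the limit. Male-like over female-like mutant cells gave 0.93 (0.78 to 1.08), so cells within the mutant library differed as well. The same split gave 1.53 (1.29 to 1.77) in epithelial-like cells, 0.91 in mesenchymal-like cells and 0.76 in branchial muscle-like cells. In epithelial-like cells the female-like ratio of mutant over control, 0.84 (0.54 to 1.13), no longer passed the limit.

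Pgf in endothelial-like cells rested on the male-like cells. It stood at 18.9 CPM in female-like control, 22.8 CPM in female-like mutant and 75.9 CPM in male-like mutant cells, and the female-like ratio of 0.27 (-0.19 to 0.74) was not called. The levels of Flt1 were 413, 843 and 849 CPM, those of Nrp1 399, 244 and 219.7 CPM, and those of Vegfc 79.2, 37.0 and 37.9 CPM. In cluster 3 Nrp2 was at 115, 113 and 256 CPM. The mutant pool held 3 embryos and cells of both sexes, so 1 sex call there stands for a single embryo. Which one it is was not known, and these are levels of cells and not of replicates.

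**Figure D5:**
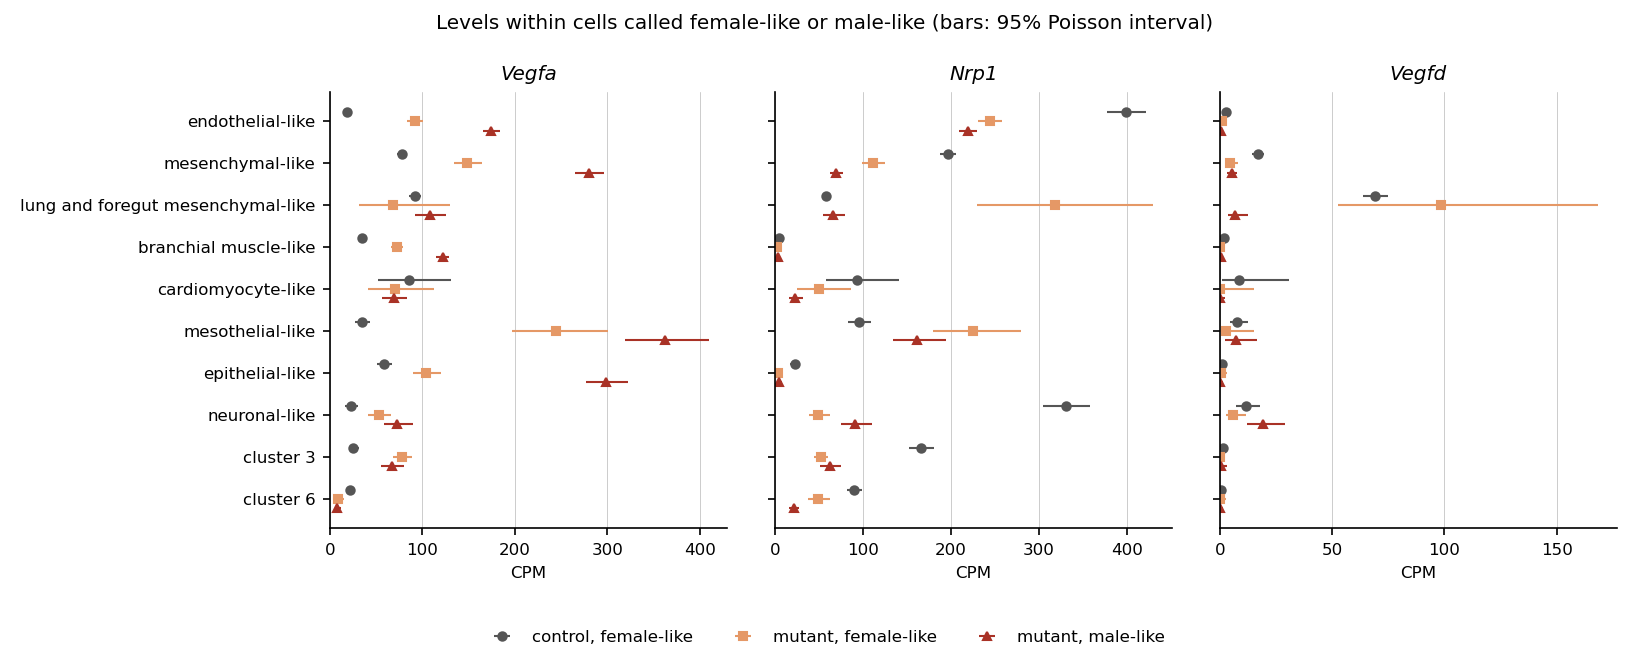
Level of Vegfa, Nrp1 and Vegfd (1 panel per gene) in each class, in CPM on a linear axis, for female-like control (grey circles), female-like mutant (orange squares) and male-like mutant cells (red triangles), with 95% Poisson intervals as bars. In endothelial-like cells Vegfa is at 18.9, 91.5 and 174 CPM and Nrp1 at 399, 244 and 219.7 CPM, in that order.

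A hypoxia reference list of 7 genes (Bnip3, Slc2a1, Pgk1, Ldha, Car9, Ankrd37 and Ndrg1) was read beside Vegfa. Its summed level in endothelial-like cells was 1064 CPM in control and 4013 CPM in mutant, with 3523 CPM in female-like and 4328 CPM in male-like mutant cells. Ldha alone gave 629 CPM of the control and 1808 CPM of the mutant sum. Of the 7 listed genes 6 were called higher there, where 4.45% of 14464 genes were, and 0 lower, where 4.67% were. The 6 were led by Bnip3, a mitophagy receptor (log2 4.50), and Ankrd37 (3.0), with Ldha (1.52) and Ndrg1 (2.00) the lowest. In epithelial-like cells the sum was 1433 and 4555 CPM and in mesenchymal-like cells 786 and 3277 CPM. The sum was higher too in the classes where Vegfa was not called higher. It was 2598 and 5997 CPM in cardiomyocyte-like cells and 1191 and 2424 CPM in lung and foregut mesenchymal-like cells. In cluster 6, where Vegfa was called lower, the sum was 1461 and 2476 CPM. Whether the list bears on the members' levels was not tested.

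Other genes of the pathway were read in endothelial-like cells from lists written with earlier results known, beside 4.45% of all genes called higher and 4.67% called lower in that class. Of 8 genes on a list for Vegfc and Vegfd processing, 3 were called lower and 0 higher. They were the proprotein convertases Pcsk5 (log2 -1.09) and Pcsk6 (-1.01), and Svep1 (-1.99, 35 and 37 UMIs). Svep1, an extracellular protein needed for lymphatic remodelling, was placed on that list by choice. Of 6 genes of extracellular VEGF binding, Thbs1 (1.22) and Ccn2 (0.94) were called higher and the angiogenesis inhibitor Vash1 (-1.16) lower. Of 13 other neuropilin ligands and plexin partners, the semaphorins Sema3g (-1.73) and Sema3d (-1.36) were called lower and 0 higher.

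Genes that act inside the cell or respond to VEGF were read the same way. Of 6 receptor partners, the endocytic adaptor Dab2 was called higher (log2 2.13) and 0 lower. Of 25 receptor signalling genes compared, the small heat shock protein Hspb1 (1.88) and the calcineurin target Nfatc2 (1.70) were called higher and 0 lower. Of 12 VEGF-induced genes, the phosphatase Dusp5 (1.20) and the peptide ligand Apln (0.93) were called higher, and the netrin receptor Unc5b (-1.42), the Notch ligand Dll4 (-1.21) and the tip cell gene Esm1 (-1.02) lower. Esm1 and Dll4 were also among the leading genes of the Esm1-led arterial-like subcluster. It held 17 of the 162 control and 40 of the 744 mutant endothelial-like cells, at median depths of 22793 and 8719 UMIs. The part of the subcluster mix in these ratios was not tested. Of 6 oxygen-dependent regulators of Vegfa, the prolyl hydroxylases Egln3 (3.31) and Egln1 (0.86), which mark hypoxia-inducible factors for destruction, were called higher and 0 lower. Pcsk6 and Esm1 fall outside the rule for naming genes and were named after their values were seen, to complete the counts. The list medians ran from -0.95 for the processing list to 0.41 for the receptor partners among these 7 lists, beside -0.07 for all genes.

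Over 13 clusters of at least 50 cells, Vegfa in control was most like Sdc2 (Pearson r 0.92), Gli2 (0.91) and Ephb3 (0.88), and in mutant most like Arhgap5 (0.96), P4ha2 (0.95) and Farp1 (0.95). Kdr was most like the endothelial genes Pecam1 (0.93), Adgrf5 (0.93) and Mmrn1 (0.92) in control and Cdh5 (0.98), Sox17 (0.98) and Sox7 (0.97) in mutant. The likeness is a correlation of log2(CPM + 1) within 1 library, over clusters that share that library and its depth, among 8322 genes in control and 7886 in mutant. The clusters were not the same ones in both libraries. Cluster 12 entered in control alone (98 cells, and 40 in mutant). The endothelial-like cluster led by Gja4 entered in mutant alone (136 cells, and 33 in control). Over these unlike sets the genes most like Vegfa were different ones in each library, and for Kdr they were endothelial genes in both.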

How the data were processed

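Cells sorted for eYFP were captured with the 10x Genomics 5′ kit, 1 library of 3 pooled embryos per genotype. The authors aligned the reads with Cell Ranger 7.1.0 to mm10 and deposited raw counts, UMIs per gene and barcode. Whether intronic reads were counted is not given in the sources used here. Barcodes with 2000 genes or fewer, 9000 or more, or at least 10% mitochondrial UMIs were left out. Cells were integrated by CCA in Seurat 5.3.0 (R 4.3.3) with cell-cycle scores regressed, 30 components, 20 neighbours and 2000 variable genes without the members and pathway genes, at the lowest resolution that gave at least 15 clusters. A class was named from markers, and it was compared where each library held 50 of its cells or more. Doublets were kept, since the threshold that Scrublet (scanpy 1.11.5) set for itself marked almost none.

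UMIs were summed per class and library. Intervals of 95% cover counting error only: levels have an exact Poisson interval, log2 ratios a conditional exact binomial one, and cell shares a Clopper-Pearson one. No replicate exists, so no p-value was computed. The interval and call procedure was checked on simulated counts for endothelial-like cells with 14464 genes, 200 of them changed, where the intervals held 93% of the true values of changed genes, and 52.6% of 2-fold and 91.3% of 4-fold changes were called. Named genes were all members, the 2 highest and 2 lowest called genes of each pathway list in endothelial-like cells, the 3 genes most like Vegfa and Kdr, and the 3 leading genes of each class. The members and lists were chosen with earlier results of these data known. Alternatives covered cell filters, clustering, naming, thinning, scaling (edgeR 4.0.16 TMM), cell-cycle phase and sex calls, and those that left out endothelial-like subclusters or a cluster were chosen after seeing the data.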

Additional observations from a re-analysis of the deposited data

Results flagged for a closer look

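Barcodes with 2000 genes or fewer, left out of the classes (1557 in control and 1626 in mutant), also held the members. Over these barcodes the log2 ratio of mutant over control was 2.19 for Vegfa (47.2 and 215 CPM), 3.45 for Flt1 (18.4 and 202 CPM), 1.54 for Kdr (39.2 and 114 CPM) and 1.24 for Nrp2 (49.5 and 117 CPM). Vegfd went the other way, with 18 and 3 UMIs and a log2 ratio of -2.99 (-5.39 to -1.21). These barcodes were not assigned to classes, so their mix of cells may differ between the libraries. Among the kept cells, 162 control and 744 mutant cells were endothelial-like, and the Kdr ratio within them was -0.14. The part of the mix in these ratios was not tested.

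For 6 members the ratio was called in opposite directions in different classes, and these differences between classes were not tested. Vegfa had a log2 ratio of 3.19 in mesothelial-like cells and -1.22 in cluster 6, and Vegfc 2.12 in mesothelial-like and -1.93 in neuronal-like cells. Pgf had 1.56 in endothelial-like cells and -1.53 in cluster 3, and Kdr 2.67 in branchial muscle-like and -2.20 in mesothelial-like cells. The Kdr level in branchial muscle-like cells was 0.0872% and 0.613% of the endothelial level, near the endothelial marker medians of 0.115% and 0.631%. Nrp1 had 0.93 in mesothelial-like and -2.34 in neuronal-like cells, and Nrp2 3.14 in branchial muscle-like cells and -1.40 in cluster 6. Several of these calls were kept under only part of the alternatives. In cluster 6 these were Vegfa (8 of 12) and Nrp2 (7 of 12), and in cluster 3 Pgf (8 of 11). For Vegfc they were the neuronal-like (8 of 17) and mesothelial-like calls (14 of 17), the latter at log2 -0.031 with thinned cells. For Kdr they were the branchial muscle-like (12 of 17) and mesothelial-like calls (15 of 17). The mesothelial-like Nrp1 call was kept in 12 of 17 and the endothelial-like Pgf call in 15 of 17.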

How the results depend on the processing

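Of 83 ratios compared, 34 were called. Of these, 31 had the same direction and 14 the same call under all alternatives run, 14 planned and 3 added. The ratio of Vegfc in mesothelial-like cells was -0.031 with thinned cells, that of Vegfd in lung and foregut mesenchymal-like cells 0.51 in female-like cells, and that of Nrp2 in cluster 6 0.31 in G1 cells; the cause was not tested. With thinned cells 1 member and not 2 was called lower in endothelial-like cells. There the Vegfc call was kept in 17 of 17 alternatives and the Nrp1 call in 16 of 17. The share of Vegfa UMIs outside endothelial-like cells was 98.0% in control and 75.5% in mutant. In control it was 97.1% in G1 cells and 98.9% with the largest endothelial-like cluster alone. In mutant it was 77.8% without high Scrublet scores, 77.3% without integration, 77.8% with cells assigned by markers, 77.6% with thinned cells, 76.5% in female-like cells, 73.5% in G1 cells, 78.0% with at least 1000 genes, 77.8% without the mural-type subcluster, 84.1% without the Slc2a3-led subcluster and 78.5% with the largest endothelial-like cluster alone. No paired analysis was possible because each genotype has 1 library.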
